A study of Drosophila melanogaster with 26 samples.

Results

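ACF1 ChIP-seq with the polyclonal rabbit antiserum Rb2 was compared between embryos that lack the antigen (acf1, 2 libraries) and wild-type embryos (WT, 3 libraries). These 5 libraries, chosen by antiserum and genotype from the 26 libraries of the series, hold 17730 of its 50336 peaks. Libraries made with the other ACF1 antibodies, Rb1 and 3F1, were left out, so that antigen and antiserum are not mixed in the comparison. The acf1 embryos carry the acf1-7 allele, an imprecise excision of a P-element that removes most of the coding region, and the WT embryos are Oregon-R. All embryos were Drosophila melanogaster aged 0 to 12 h, collected as unstaged mixtures of both sexes, and their chromatin was fixed with 3.7% formaldehyde. The rabbit had been immunized with a C-terminal part of ACF1, and the serum shows minor cross-reactivity on Western blots. The deletion ends before the sequence that codes for this part. That the acf1 embryos lack ACF1 rests on the paper's Western blots and immunofluorescence microscopy. Each library came from its own batch of chromatin and has its own input, the acf1 libraries from batches 4 and 5 and the WT libraries from batches 6, 7 and 8, so that genotype and chromatin batch cannot be told apart.

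ACF1 is the signature subunit of the nucleosome remodelers ACF and CHRAC, in which it joins the ATPase ISWI. These complexes slide nucleosomes and space them at regular intervals, and they are needed for orderly chromatin in the early embryo. In ChIP, fragments of fixed chromatin are pulled down with an antibody and sequenced, and a peak is a stretch where more fragments pile up than in the surroundings. Chromatin of a mutant that lacks the antigen gives the background of the same serum. Whether the lists of the 2 genotypes differ beyond the spread between libraries is the question the comparison addresses.

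The deposited values are the positions of peaks, in Release 5 (dm3) of the genome, with no score or read number, so that a missing peak means only that none was called. Weak enrichment, few reads and absence of signal cannot be told apart in these lists. All but 8 of the 17730 peaks were 200 bp wide. The lists are not in order of position. They run through 275 and 857 blocks of rising position in acf1 and 399, 610 and 419 in WT, as a ranking with ties would, but what was ranked is not given in the sources used here, and a place in a list is used below only as that. The library acf1 replicate 1 and the library WT replicate 3 were alike in the spread of their peaks along the arms, on chromosome 4 and in overlap with RSF-1 peaks, and differed there from the other 3 libraries. They did not stand apart in peak number or in the shares of peaks on X, off the arms or with an input peak. The differences between genotypes in number, overlap, regions, place, X, off-arm, centromeric and input shares are therefore also given without both of them, which leaves 1 acf1 and 2 WT libraries. Reads over the deleted part of the acf1 gene were not used here, so that the genotype of each library was not checked and every comparison goes by the labels.

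The numbers of peaks did not separate the genotypes. Rb2 ChIP gave 2226 and 5184 peaks in the acf1 libraries, against 2556, 4009 and 3755 peaks in the WT libraries. The shortest and the longest list were both from acf1 chromatin, and all 3 WT lists fell between them. On the log2 scale the means were 11.73 ± 0.86 in acf1 and 11.72 ± 0.35 in WT (SD, n = 2 and 3 libraries), a difference of 0.01 (exact permutation test, two-sided, p = 1). With 2 libraries against 3 there are 10 splits, and the smallest p they allow is 0.1. Without acf1 replicate 1 and WT replicate 3 the difference was 0.70, without acf1 replicate 1 alone it was 0.62 and without acf1 replicate 2 alone it was -0.60, so that the direction depends on which acf1 library is kept. The inputs held far fewer peaks, 221 and 193 in acf1 and 250, 263 and 254 in WT. The lower numbers of the acf1 inputs were not tested and cannot be told apart from chromatin batch. Inputs of the other WT batches of the series were not set beside them.

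**Figure D1:**
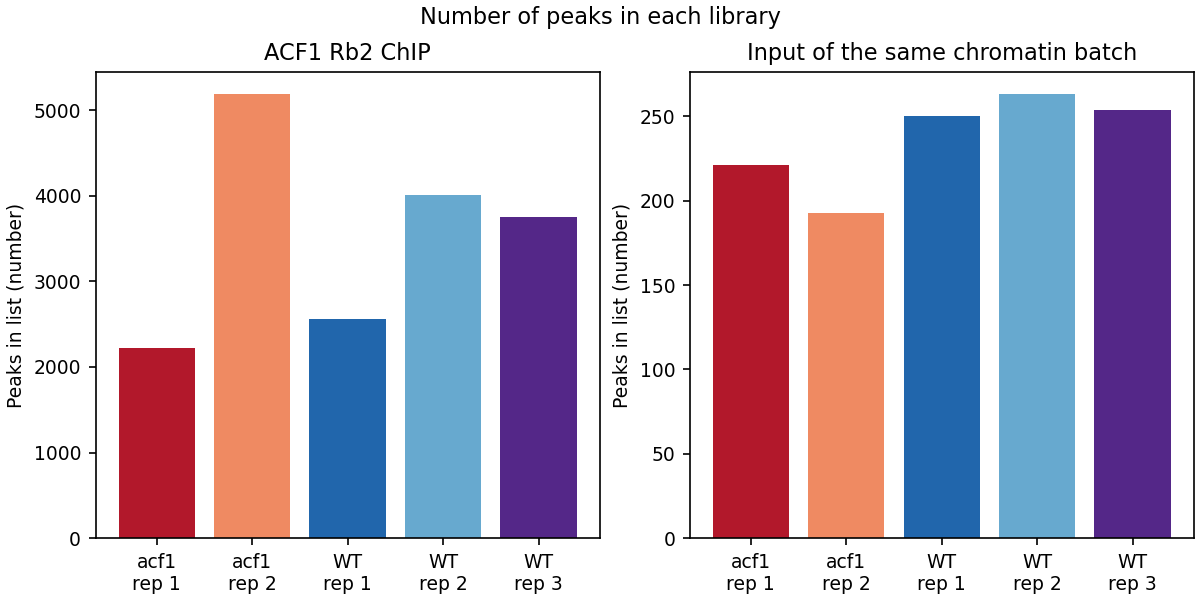
Bars give the number of peaks in the list of each ACF1 Rb2 library (left) and of the input of its chromatin batch (right), 1 bar per library, so that no error bar applies. The 2 acf1 lists, with 2226 and 5184 peaks, lie on either side of the 3 WT lists, and every input has 263 peaks or fewer.

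By overlap of whole lists, which list length limits, likeness crossed the genotypes. Peaks counted as shared if they overlapped by 50 bp or more, and the overlap of a pair of libraries was taken as the percentage of the shorter list found in the longer one. Of the 2226 peaks of acf1 replicate 1, 75.0% (95% exact binomial interval 73.1 to 76.8%) were shared with WT replicate 3, but 60.2% with the other acf1 library, 60.2% with WT replicate 2 and 50.5% with WT replicate 1. The acf1 replicate 2 list took in 86.4% of WT replicate 1 and 82.6% of WT replicate 2, against 57.9% of WT replicate 3. Among the WT lists, replicates 1 and 2 shared 87.1%, replicates 1 and 3 shared 62.8% and replicates 2 and 3 shared 57.5%. The pair of acf1 lists was thus less alike than 3 of the 6 acf1 to WT pairs, and by this measure WT replicate 3 was closer to acf1 replicate 1 than to either WT library.

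Averaged over pairs, overlap was 68.8 ± 14.6% for the 6 pairs of unlike genotype and 66.9 ± 13.6% for the 4 pairs of like genotype (SD over pairs, which share libraries). The difference of 1.89 percentage points was well inside the spread (exact permutation test over the 10 splits, two-sided, p = 0.9). It was -2.55 points without acf1 replicate 1 and WT replicate 3, so that its direction is not settled. Because list length limits overlap, the first 2000 lines of each list were also compared, and here the unlike pairs shared 61.6 ± 9.62% and the like pairs 66.6 ± 14.0%, a difference of -4.98 points (exact permutation test, two-sided, p = 0.4). At equal length the pair of acf1 libraries shared 47.3% and the WT replicates 1 and 2 shared 80.8%, the lowest and highest values of the 10 pairs at this length. WT replicate 3 then shared 60.6% with acf1 replicate 1, against 69.0% with WT replicate 1 and 69.3% with WT replicate 2, the opposite order to that of the whole lists. In the first 500 lines the pair of acf1 libraries shared 56.8%, and the lowest value was the 54.2% of acf1 replicate 2 with WT replicate 1. There acf1 replicate 2 shared 63% and 55.2% with WT replicates 2 and 3, below the 66.6% to 80.8% of the WT pairs. The acf1 replicate 1 list shared 72.8% with WT replicate 3. Unlike minus like pairs gave -6.77 points in the first 500 lines and -4.42 points in the first 1000 (exact permutation tests, two-sided, p = 0.2 and p = 0.5). Over the first 2000 lines the difference was -8.48 points without acf1 replicate 1 and WT replicate 3. It turned to 3.64 points without WT replicate 1 and to 3.15 points without WT replicate 2.

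Where both lists had a peak, the peaks coincided closely. Shared peaks overlap by 50 bp or more by rule, which caps the distance between their centres in every pair. The median distance between peak centres was 16 to 24 bp in the unlike pairs and 16 to 24 bp in the like pairs, with means of 19.3 ± 2.94 and 20.3 ± 3.50 bp (exact permutation test of the difference of -0.92 bp, two-sided, p = 0.9). Between 25.9% and 38.2% of the shared peaks of an unlike pair had centres within 10 bp of each other, and 26.6% to 36.9% in a like pair. Peaks of acf1 chromatin were therefore placed as near to WT peaks as replicates of WT chromatin were to each other, within the spread of the pairs.

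The spread of peaks along the chromosome arms followed the same lines. In 121 bins of 1 Mb, the numbers of peaks of acf1 replicate 1 correlated with those of WT replicate 3 with Pearson's r = 0.859, and with r = 0.168 to 0.335 with the other 3 libraries. The acf1 replicate 2 list correlated with WT replicate 2 with r = 0.916 and with WT replicate 1 with r = 0.797, against r = 0.223 with WT replicate 3. Within WT, r was 0.828 for replicates 1 and 2, 0.290 for replicates 1 and 3 and 0.376 for replicates 2 and 3. These values describe bins of the same genome, which share gene density and mappability, and carry no test.

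**Figure D2:**
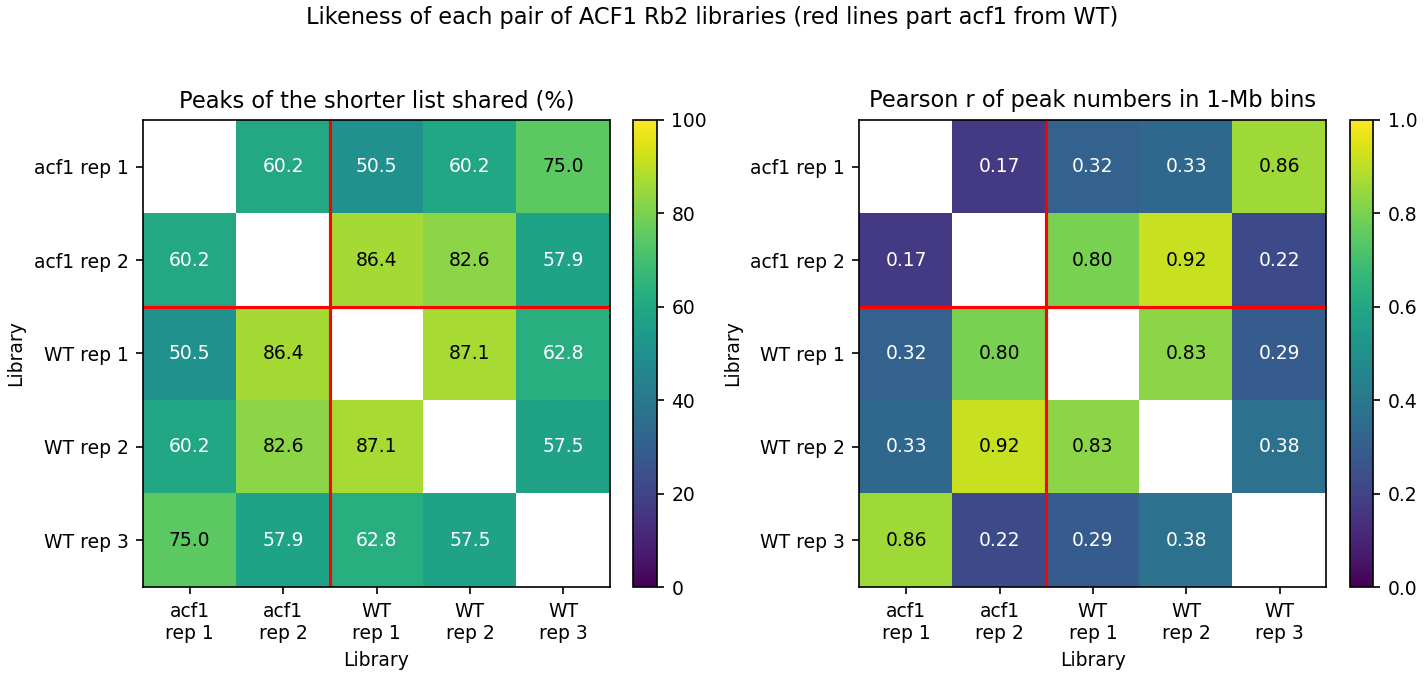
Each square is a pair of ACF1 Rb2 libraries, with the percentage of the shorter list that was shared (left, colour from 0 to 100%) and Pearson's r of peak numbers in 1-Mb bins (right, colour from 0 to 1), and red lines divide acf1 from WT. The pairs acf1 replicate 1 with WT replicate 3 (75.0%, r = 0.859) and acf1 replicate 2 with WT replicate 2 (82.6%, r = 0.916) lie across the red lines, while the 2 acf1 libraries reached 60.2% and r = 0.168.

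Most regions called more than once were present in both genotypes. Overlapping peaks of the 5 lists were merged into 7883 regions, of which 4005 (50.8%) were called in 1 or more libraries of each genotype, 2042 in acf1 alone and 1836 in WT alone. Because acf1 had 2 libraries and WT 3, any region in more than 3 lists counted as shared by rule, as did most combinations of 2 or 3 lists. The number of shared regions alone is therefore no measure of likeness between the genotypes. Most of the regions of a single genotype came from a single library. The 3653 regions of 1 library comprised 480 of acf1 replicate 1 and 1550 of acf1 replicate 2, as well as 182, 409 and 1032 of WT replicates 1, 2 and 3. The number of shared regions fell to 1729 without acf1 replicate 2 and was 3422 without acf1 replicate 1 and WT replicate 3. All 5 libraries had 1061 regions in common.

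Of the 1363 regions found in both acf1 libraries, 1351 (99.1%, exact interval 98.5 to 99.5%) were called in 1 or more WT libraries and 1270 (93.2%) in 2 or 3. In the other direction, 1542 of the 1565 regions found in all 3 WT libraries (98.5%, exact interval 97.8 to 99.1%) were called in 1 or both acf1 libraries. This second share rested on acf1 replicate 2, which had 97.1% of these regions, against 69.2% in the shorter list of acf1 replicate 1. Of the 2914 regions found in at least 2 WT libraries, 92.7% were called in 1 or both acf1 libraries and 43.6% in both. The 1270 regions with both acf1 libraries and at least 2 WT libraries became 2615 without acf1 replicate 1, when the single list of acf1 replicate 2 had to hold them, and 2114 without acf1 replicate 1 and WT replicate 3.

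Regions found in every library of 1 genotype and in none of the other were few. There were 12 such regions for acf1, 0.152% of the 7883 regions, and 23 for WT, 0.292% of the regions. Asking for at least 2 of the 3 WT libraries gave 213 regions absent from both acf1 lists. This number rested on acf1 replicate 2, since 1560 regions of at least 2 WT libraries were missing from acf1 replicate 1, against 297 missing from acf1 replicate 2. It was 42 without WT replicate 2, 90 without WT replicate 3, 133 without WT replicate 1 and 118 without acf1 replicate 1 and WT replicate 3. The 12 acf1 regions likewise became 28 without WT replicate 2 and 75 without WT replicate 3. With a single acf1 list, the regions absent from every WT list numbered 497 for acf1 replicate 1 and 1564 for acf1 replicate 2, and 1762 for acf1 replicate 2 when WT replicate 3 was left out as well.

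Some combinations of libraries that cross the genotypes held far more regions than those that keep to one. Among regions found in exactly 2 lists, 720 were in acf1 replicate 2 and WT replicate 2 and 285 in acf1 replicate 1 and WT replicate 3, against 12 in both acf1 lists, 109 in WT replicates 2 and 3, 66 in WT replicates 1 and 2 and 15 in WT replicates 1 and 3. Other crossed pairs had fewer regions, with 133 in acf1 replicate 2 and WT replicate 3, 71 in acf1 replicate 2 and WT replicate 1, and 8 and 6 in acf1 replicate 1 and WT replicates 2 and 1. Lists of different length fill these combinations unevenly, and the counts are given as a description with no test.

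**Figure D3:**
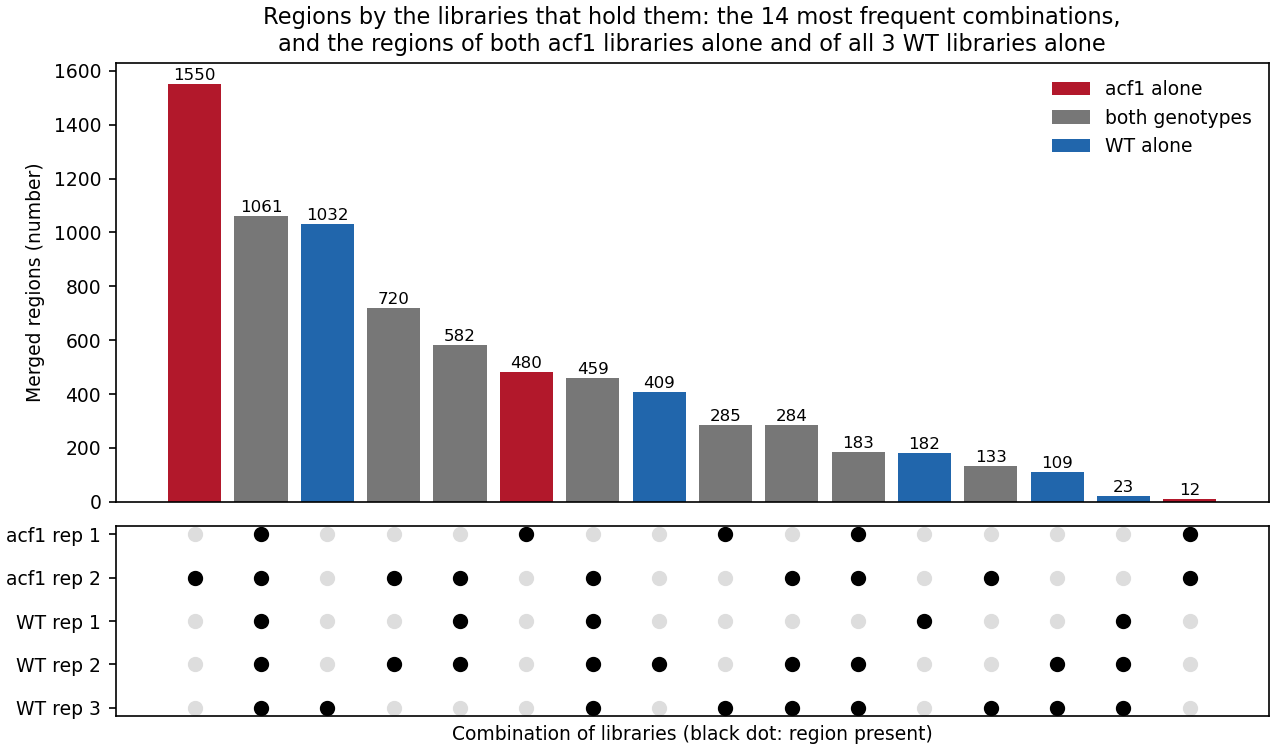
Bars give the number of merged regions with each combination of libraries, for the 14 most frequent combinations and the regions of both acf1 libraries or all 3 WT libraries alone, and black dots below mark the libraries that hold the region. The 1061 regions of all 5 libraries exceed the 12 regions of both acf1 libraries alone and the 23 regions of all 3 WT libraries alone.

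Of the 1061 regions of all 5 lists, with median places of 26.1% and 16.9% in acf1 and 28.1%, 17.5% and 15.8% in WT, those of smallest mean place were near the top of each list by choice. On 3R, the region chr3R:8453511-8453722 was on line 2 of acf1 replicate 1 and line 5 of acf1 replicate 2, against lines 5, 1 and 4 in WT replicates 1, 2 and 3. On 3L, chr3L:1668652-1668863 was on lines 1 and 2 in the acf1 lists and on lines 11, 6 and 3 in the WT lists. The regions chr3R:18182166-18182393, chr3R:778324-778552 and chr3L:21477095-21477311 stood within the first 10 lines of every list. None of these regions had a peak in an input, and each of them had one in an RSF-1 list, RSF-1 being the signature subunit of another ISWI remodeler that was profiled in the same series with its own antibody.

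The 12 regions of acf1 alone had places from 5.21% to 95.8% in acf1 replicate 1 and from 19.9% to 99.8% in acf1 replicate 2. The highest in acf1 replicate 1, on the unplaced sequence U, stood at 60.1% in acf1 replicate 2. The first on the arms by mean place, with 2R left out, chr2L:16325808-16326042, was on line 1118 of the 2226 lines of acf1 replicate 1 and on line 1031 of the 5184 lines of acf1 replicate 2. The nearest WT peak, in replicate 3, was centred 1.01 kb away. The next of these regions, chrX:8800157-8800396, chr2L:9291823-9292062, chrX:18406482-18406719 and chr3R:3932222-3932445, had places between 54.7% and 59.7% of the way down acf1 replicate 1 and between 66.0% and 77.2% in acf1 replicate 2. Over all 12 regions the median place was 58.7% and 76.3%, while the 1061 regions of all 5 libraries had median places of 26.1% and 16.9% in the same lists. Of these 12 regions, 4 had a WT peak centred within 500 bp. Among all peaks of acf1 alone, 22.1% in acf1 replicate 1 and 6.71% in acf1 replicate 2 had one.

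The regions of WT alone included some of higher place. On 3L, chr3L:19591782-19592015 stood 15.3%, 8.61% and 6.82% of the way down WT replicates 1, 2 and 3. The nearest peak of acf1 replicate 2 was centred 0.168 kb away and overlapped this region, but by less than 50 bp. The region chr3L:13034678-13034941 stood at 25.1%, 19.5% and 16.4%, with the nearest acf1 peaks 2.71 and 2.72 kb away. The region chr2L:850980-851215 stood at 32%, 22.7% and 16.5%, with the nearest acf1 peaks 4.35 and 1.65 kb away. For chr3L:8714429-8714657 a peak of acf1 replicate 2 was centred 0.251 kb away, and for chr3L:629843-630083 the nearest acf1 peaks were 18.5 and 18.4 kb away. Over the 23 regions the median place was 65.5%, 45.7% and 40.5% in the 3 lists, later than the 28.1%, 17.5% and 15.8% of the regions of all 5 libraries. Of the 23 regions, 10 had an acf1 peak centred within 500 bp. Among all peaks of WT alone, 26.2%, 17.4% and 16.2% in WT replicates 1, 2 and 3 had one. Genes at these positions were not used here, since the annotation that was given covers only Release 6 of the genome.

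In every list, peaks shared with the other genotype had an earlier median place than peaks of 1 genotype alone. The share of peaks with a counterpart in the other genotype was 77.7% (exact interval 75.9 to 79.4%) and 69.8% (68.6 to 71.1%) in acf1, against 88.3% (87.0 to 89.6%), 84.7% (83.5 to 85.8%) and 68.0% (66.5 to 69.5%) in WT. An acf1 peak had 3 WT lists to be found in and a WT peak 2 acf1 lists, so that the shares of the genotypes are not on the same footing and were not tested against each other. The lowest share was that of a WT library, and the groups overlapped.

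Shared peaks of acf1 had a median place 39.1% and 38.8% of the way down the list, against 81.9% and 71.2% for peaks of acf1 alone. In WT the median place of shared peaks was 45.4%, 44.2% and 35.3%, against 92.6%, 81.1% and 79.1% for peaks of WT alone. The difference was negative in 5 of 5 libraries and averaged -40.6 percentage points, with a range of -47.2 to -32.4. An exact two-sided sign-flip permutation test over the 5 libraries gave p = 0.0625, the smallest that 5 libraries allow, so that the threshold of 0.05 could not be passed. Sharing was counted among these same 5 lists, so that the differences are not independent of each other, which the test assumes. The mean difference was -39.2 points without acf1 replicate 1 and WT replicate 3. Sharing within a genotype fell down the lists as well. Of the peaks of acf1 replicate 1, 94.2% above the middle line and 26.1% below it were shared with acf1 replicate 2, against 93.8% and 26.5% with WT replicate 2, so that the place of shared peaks is not particular to sharing across genotypes.

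Within the first 10% of lines, 99.5% and 99.6% of the acf1 peaks had a WT counterpart, and 98.8%, 99.8% and 99.5% of the WT peaks had an acf1 counterpart. Within the last 10% of lines, these shares were 38.6% and 51.6% in acf1 and 30.1%, 47.1% and 22.9% in WT. The decline took 3 forms. In acf1 replicate 1 at least 99.1% of peaks were shared down to the middle of the list and 65.0% in the step from 60 to 70%, and WT replicate 3 had a similar drop, with 89.1% in the step before the middle and 28.7% in the step from 70 to 80%. In acf1 replicate 2, the longest list, the share declined from step to step to 45.4% before the last one. In WT replicates 1 and 2 it stayed at 82.8% and 74.6% or more until the last step.

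Of the first 100 peaks of each list, 95 and 82 in acf1 and 88, 87 and 96 in WT were found in all 4 other lists. Of the first 500, 454 and 338 in acf1 and 387, 397 and 459 in WT were found in all 4. The highest counts were those of acf1 replicate 1 and WT replicate 3, and the lowest that of acf1 replicate 2. The shortest list, acf1 replicate 1, is among the 4 others for every library but itself and limits those counts. The order of the 1061 regions of all 5 libraries was also much alike, with Spearman's rho across regions between 0.638 and 0.820 in the unlike pairs (mean 0.715) and between 0.710 and 0.881 in the like pairs (mean 0.790). Regions are not independent replicates, and no test was made of these coefficients.

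**Figure D4:**
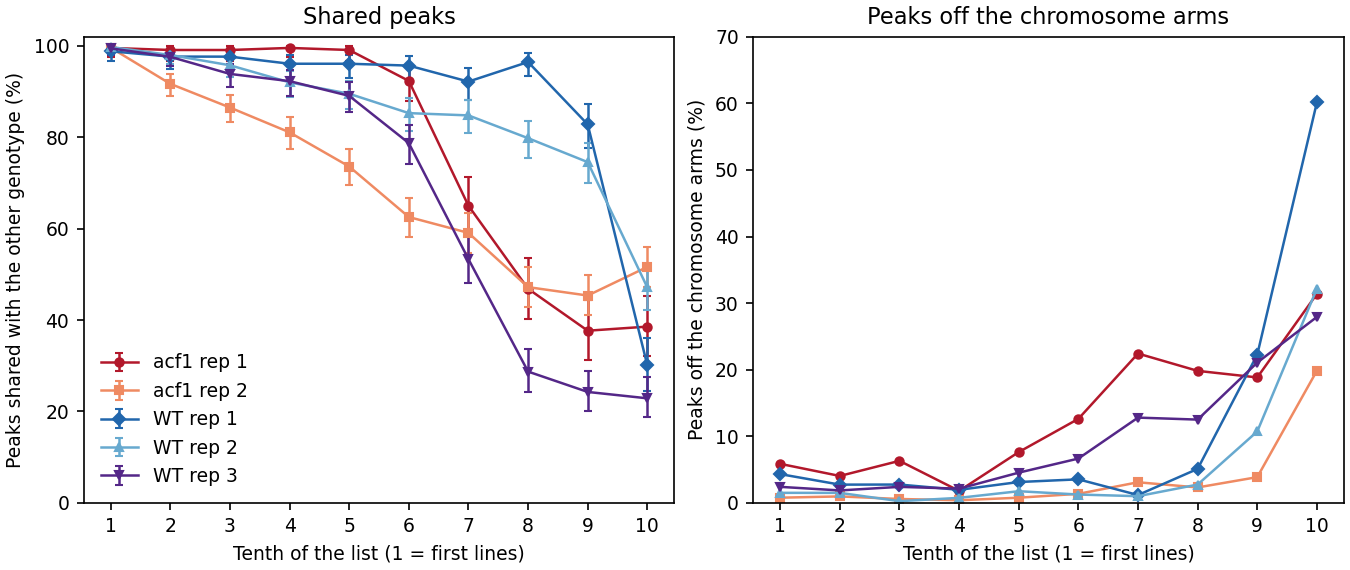
Points give, for each successive 10% of the lines of a list, the percentage of peaks shared with the other genotype (left, bars are exact 95% intervals of the counts) and the percentage that lie off the chromosome arms (right), with 1 line per library. At the top of the lists 98.8% or more of the peaks are shared in all 5 libraries and at the bottom 22.9% to 51.6%, while off-arm peaks reach 60.2% at the bottom of WT replicate 1.

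On no chromosome class did the share of peaks differ between the genotypes beyond the spread of the libraries. On X, which is present once in males and in a pair in females, were 18.0% and 18.2% of the acf1 peaks and 17.8%, 18.6% and 17.8% of the WT peaks, a difference of means of 0.01 percentage points (exact permutation test, two-sided, p = 1). Chromosome 4, a small chromosome with many features of heterochromatin, had 3.55% and 1.29% of the acf1 peaks and 1.06%, 1.37% and 3.28% of the WT peaks. Off the arms, on the heterochromatic and unplaced sequences of the assembly, were 13.1% and 3.40% of the acf1 peaks and 10.7%, 5.36% and 9.43% of the WT peaks, a difference of -0.27 points (exact permutation test, two-sided, p = 1). For the 7 classes (2L, 2R, 3L, 3R, 4, X and off the arms) the raw p was 0.6 to 1, and adjusted over the 7 by the method of Benjamini and Hochberg it was 1 for each. Without acf1 replicate 1 and WT replicate 3 the difference off the arms was -4.65 points and that on X -0.040 points. Without acf1 replicate 2 alone the difference off the arms was 4.57 points.

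On chromosome 4 the libraries formed the same pairs as before, with acf1 replicate 1 and WT replicate 3 above 3% and the other 3 libraries below 1.4%. A related difference appeared next to the centromeres, and was looked for after the bins had been seen. Of the peaks on the 4 large autosomal arms, 20.9% (exact interval 18.9 to 23.1%) in acf1 replicate 1 and 9.73% (8.82 to 10.7%) in acf1 replicate 2 lay within 3 Mb of the centromeric end (the start of 2R and 3R, and the last peak of 2L and 3L), against 11.4% (10.0 to 13.0%), 11.1% (10.0 to 12.3%) and 18.3% (16.9 to 19.9%) in WT replicates 1, 2 and 3. The means were 15.3 ± 7.94% in acf1 and 13.6 ± 4.08% in WT (SD), and the difference of 1.70 points was smaller than this spread (exact permutation test, two-sided, p = 0.7). It was -1.56 points without acf1 replicate 1 and WT replicate 3, and -3.91 points without acf1 replicate 1 alone. On each of the arms 2L, 2R, 3L and 3R, acf1 replicate 1 and WT replicate 3 had the highest shares.

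The values differed between the earlier and the later part of the lists. Above the middle line, peaks next to the centromeres made up 10.6% and 8.39% in acf1 and 8.10%, 8.73% and 9.02% in WT. Below it they made up 34.2% and 11.3% in acf1 and 16.1%, 14.1% and 30.4% in WT. Chromosome 4 behaved alike, with 0.809% and 0.656% in acf1 and 0.782%, 0.549% and 0.373% in WT above the middle, and 6.29% and 1.93% in acf1 and 1.33%, 2.19% and 6.18% in WT below it. In both measures the libraries lay closer together above the middle, and acf1 replicate 1 and WT replicate 3 were the highest below it. The share off the arms did not follow this division, with 5.12% and 0.694% in acf1 and 2.97%, 1.15% and 2.66% in WT above the middle, and 21.0% and 6.10% in acf1 and 18.5%, 9.58% and 16.2% in WT below it. Whether chromatin preparation, sequencing depth or another property of the libraries moves with this division was not tested.

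**Figure D5:**
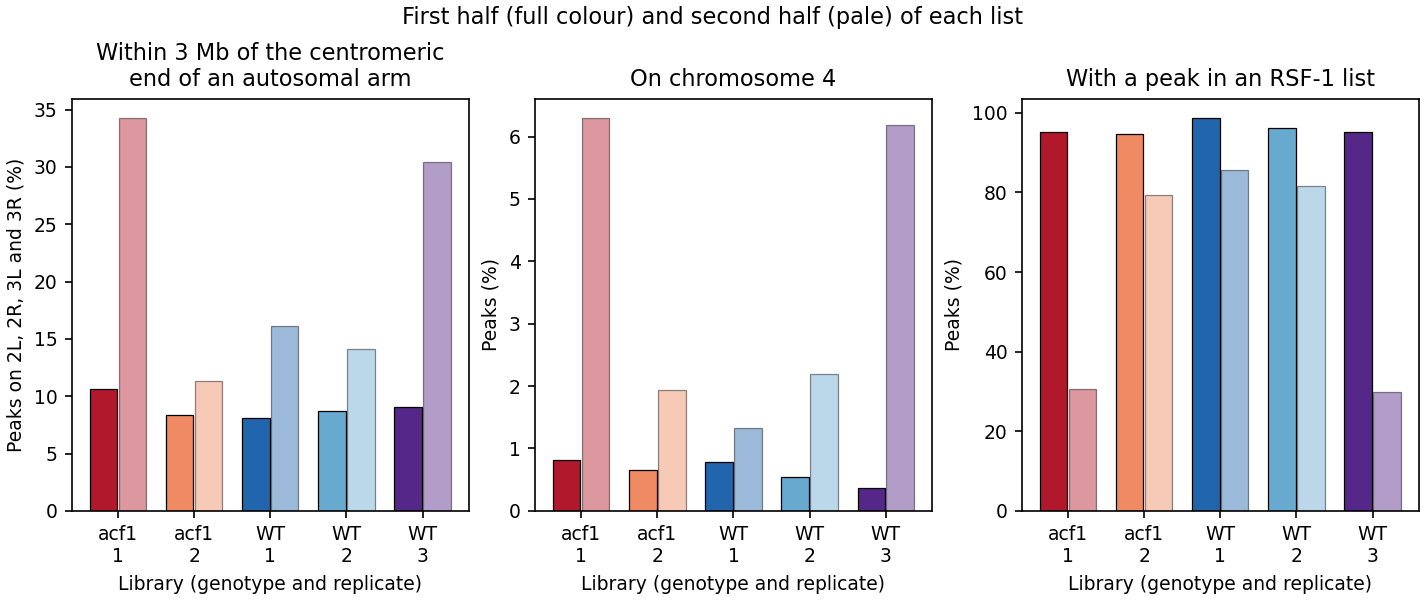
Bars give the percentage of peaks next to the centromeric end of an autosomal arm (left), on chromosome 4 (middle) and with a peak in an RSF-1 list (right), for the lines above the middle of each list (full colour) and below it (pale), 1 pair of bars per library without error bars. Below the middle, acf1 replicate 1 and WT replicate 3 have 34.2% and 30.4% of their autosomal peaks next to the centromeres and an RSF-1 peak at 30.7% and 29.9% of their peaks, while the other 3 libraries have an RSF-1 peak at 79.3% to 85.5%.

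The lists were also set beside the background measured in the same chromatin. Of the Rb2 peaks, 5.44% (exact interval 4.53 to 6.46%) and 2.35% (1.96 to 2.80%) in acf1 and 6.49% (5.57 to 7.52%), 3.74% (3.18 to 4.38%) and 2.58% (2.10 to 3.14%) in WT overlapped a peak of the input of their own batch. The means were 3.89 ± 2.18% and 4.27 ± 2.01% (SD), a difference of -0.38 points (exact permutation test, two-sided, p = 0.9), and of -2.76 points without acf1 replicate 1 and WT replicate 3. Among peaks of 1 genotype alone, 1.81% and 0.639% in acf1 and 25.2%, 7.15% and 0.833% in WT had an input peak. The highest of these values belongs to WT replicate 1, in which 50.7% of the peaks of WT alone lay off the arms. Of the 12 regions of acf1 alone, 3 had an input peak, and of the 23 regions of WT alone 4 had one. Of all 7883 regions 4.63% had a peak in any of the inputs, and of the 1061 regions of all 5 libraries 5.18%.

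Pre-immune Rb2 serum, taken from the rabbit before immunization, gave lists of 621 and 1 peaks in WT chromatin. Peaks of the first list were found under 5.75% and 1.31% of the acf1 peaks and 3.29%, 2.32% and 4.05% of the WT peaks, and the single peak of the second list under none of the 17730. Both pre-immune libraries are of WT chromatin, so that the acf1 peaks were set beside the background of WT.

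RSF-1 peaks coincided with the common regions. Of the 1061 regions of all 5 Rb2 libraries, 1047 (98.7%, exact interval 97.8 to 99.3%) overlapped a peak of at least 1 of the 3 RSF-1 lists, and 96.6% overlapped one of the list made from rsf-1 mutant embryos. A high share was not particular to these regions, being 99.1% for the 582 regions of acf1 replicate 2 and WT replicates 1 and 2 alone. The share was 64.7% over all 7883 regions. It was 4 of 12 for the regions of both acf1 libraries alone and 23 of 23 for those of all 3 WT libraries alone. With the list of rsf-1 mutant embryos alone it was 2 of 12 and 11 of 23 for these regions, and 56.3% over all regions. Per library, 62.9% and 87.0% of the acf1 peaks and 92.1%, 88.9% and 62.5% of the WT peaks had an RSF-1 peak, which again set acf1 replicate 1 beside WT replicate 3. The RSF-1 library WT replicate 2 came from the same chromatin batch 6 as Rb2 WT replicate 1. Its list alone was found under 58.8% and 56.8% of the acf1 peaks and 84.0%, 71.9% and 53.4% of the WT peaks, and the list of RSF-1 WT replicate 1, from batch 10, under 57.5% and 84.0% of the acf1 peaks and 87.1%, 84.0% and 57.7% of the WT peaks. Above the middle of each list the share was 95.1% and 94.7% in acf1 and 98.6%, 96.2% and 95.1% in WT. The 285 regions of acf1 replicate 1 and WT replicate 3 alone had an RSF-1 peak in 14.0% of cases, and 25.3% of them lay off the arms. The 720 regions of acf1 replicate 2 and WT replicate 2 alone had one in 90.8% of cases and lay off the arms in 3.19%. Over all 7883 regions 8.92% lay off the arms. A high off-arm share was not particular to the 285 regions, being 42.4% for the 66 regions of WT replicates 1 and 2 alone.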

How the data were processed

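Peak lists of 5 ACF1 Rb2 libraries (2 acf1, 3 WT), their 5 inputs, 2 pre-immune Rb2 and 3 RSF-1 libraries were used. The authors mapped reads with Bowtie 1.1.1 to Release 5 (dm3), keeping unique hits, and ran HOMER with its defaults for peak calling. The deposited values are peak positions, with no score. The paper states sequencing depth as 1 range over all samples and names an input for each profile. The depth of each list, and how the input entered peak calling, are not given in the sources used here. Exact binomial intervals cover counting error only and treat peaks as independent.

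Positions are printed 1-based. Peaks with at least 50 bp in common were treated as shared and merged into regions. Differences between genotypes were tested two-sided over every possible assignment of the libraries to genotypes (exact permutation), and places in the list with a sign-flip test (threshold 0.05), since lists of positions allow no count model. The p-values measure the spread between these libraries, which may be technical. The members, comparisons and lists were chosen with earlier results of these data known. Regions were named by mean place in the list, the first 5 each in all 5 libraries, in both acf1 and no WT library, and in all 3 WT and no acf1 library, 2R excepted. The alternatives were overlaps of 1 and 150 bp, arms alone, removal of input peaks, other list lengths and counting rules, and each library left out in turn.

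Calculations ran in Python 3.11.15 (with scipy 1.17.1, numpy 2.4.6 and, for figures, matplotlib 3.10.9). They were tested on 17730 simulated peaks, where 1000 of 1000 common, 200 of 200 WT-only and 50 of 50 acf1-only regions were recovered. The planted regions stood apart, were in every list of their class and were shifted little, so that recovery checks the counting alone. Missed peaks and overlaps near the limit were not simulated.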

Additional observations from a re-analysis of the deposited data

How the results depend on the processing

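No difference passed the threshold of 0.05 under any alternative, and with these numbers of libraries none could. Of 122 alternative values, 84 did not turn sign (1 of them, in centre distance, was 0) or stayed within 1.5 times a count, 23 turned the sign of a difference and 15 moved a count by more. The depth behind each list is unknown and limits what a missing peak means.

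Leaving out each library in turn, the difference in peak number was -0.60 to 0.62 on the log2 scale, in pair overlap -7.21 to 10.1 points (first 2000 lines, -18.9 to 3.64 points), in centre distance -3.25 to 0.67 bp, off the arms -5.11 to 4.57 points, on X -0.13 to 0.28 points, next to the centromere -3.91 to 7.31 points and with an input peak -1.92 to 1.16 points. The counts were 1729 to 3924 shared regions, 1062 to 2615 replicated common regions, 14 to 1564 replicated acf1-only regions and 42 to 1560 replicated WT-only regions. The 1729 shared, 2615 common, 1564 acf1-only and 1560 WT-only regions each come from a single acf1 list set against WT.

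Without acf1 replicate 1 and WT replicate 3 together, an alternative chosen after seeing the data, the difference in pair overlap was -2.55 points, in centre distance 1.5 bp, next to the centromere -1.56 points and on X -0.040 points, with 2114 common, 1762 acf1-only and 118 WT-only regions. An overlap of 150 bp gave 19 acf1-only regions, and all 3 WT libraries gave 23 WT-only regions. Without input peaks the difference off the arms was 0.14 points. As a replicate block of the numbers 1 and 2, which mark different chromatin batches and pair nothing, the differences were 0.09 for the log2 peak number, 0.19 points off the arms and -0.13 points on X (2 pairs, exact sign-flip permutation p = 1 for each). Why values turned was not tested.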
